A study of Mus musculus with 13 samples.

Results

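Aquaporins are membrane channels that let water through, and one branch of the family, the aquaglyceroporins, also passes glycerol. In skin, Aqp3 is the channel of epidermal keratinocytes, Aqp1 belongs to vessel endothelium and red blood cells, Aqp5 to secretory glands, Aqp7 to fat cells and Aqp9 to liver and leukocytes. Mice without Aqp3 are known for dry skin and for fewer skin tumours after chemical carcinogenesis. The genes described here are Aqp1, Aqp3, Aqp4, Aqp5, Aqp7, Aqp9 and Aqp11, 7 of the 12 aquaporin genes on the array. Every probe set whose only gene symbol was one of these was taken, which gave 14 of 45037 probe sets. The genes were chosen by name with their measured cKO and WT values in view, so those values describe them, and the calls of the fits are no independent test.

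The arrays measured total RNA of squamous skin tumours from G9a cKO mice (conditional knockout, n = 7 arrays) and from G9a WT mice (n = 6 arrays). G9a, encoded by Ehmt2, is a histone methyltransferase that marks silent chromatin. In both groups DMBA, a carcinogen (0.25 mg/ml), and TPA, a tumour promoter (0.02 mg/ml), were painted on shaved back skin in volumes of 200 µl, weekly for 6 weeks from an age of 8 weeks, and TPA was then given 2 times a week for at most 20 weeks. The labels name neither the driver of the deletion nor the strain, and they do not say whether the tumours came from separate mice. The spread between arrays may be partly technical. If some tumours shared a mouse, the arrays are not independent, and the standard errors and adjusted p values below may be too small.

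Ehmt2 probe set 1460692_PM_at read 5.87 to 6.12 on cKO arrays and 8.03 to 8.61 on WT arrays (log2), while 1426888_PM_at read 7.36 to 7.49 and 7.03 to 7.53. The labels do not place either probe set relative to the deletion. All 7 basal keratinocyte markers averaged above the background level in both groups, with array means of 11.09 to 11.50 in cKO and 11.14 to 11.45 in WT tumours. Within each group, 6 pairs of arrays that follow one another in the deposit mirrored each other around the group mean (correlation of deviations between -0.953 and -0.881), with cKO replicate 1 unpaired. Two-group differences were therefore fitted with limma without and with a term for these pairs. The words rose and fell are kept for probe sets that both fits called at an adjusted p under 0.05, adjusted over all probe sets, and differences are those of the fit without the term. The nonspecific control probe sets, which have no target, differed between the groups by -0.307 to 0.08 and the hybridisation controls by 0.06 to 0.49 (cKO minus WT, log2), so differences inside these ranges are not set apart from those of controls. The background level used below is 4.29, the upper quartile of the nonspecific controls. Levels of different probe sets cannot be compared on these arrays, and the genes are not ranked by level.

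Both fits called 4 aquaporin probe sets higher and 1 lower in cKO tumours, of 14. Over all probe sets 26.0% were called, 13.4% higher and 12.6% lower. Without the pair term 4 aquaporin probe sets were higher and 2 lower, and of all probe sets 47.9% were called, 24.4% higher and 23.4% lower. The groups did not overlap for 4 higher and 1 lower, against 13.3% and 10.9% of all probe sets (24.2% together). Nothing is read from these counts, since the choice of members used the same contrast. The calls fell on Aqp1 and both probe sets of Aqp7 (higher) and on Aqp11, whose probe sets moved in opposite directions. Aqp3, Aqp4, Aqp5 and Aqp9 had no probe set called by both fits.

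**Figure D1:**
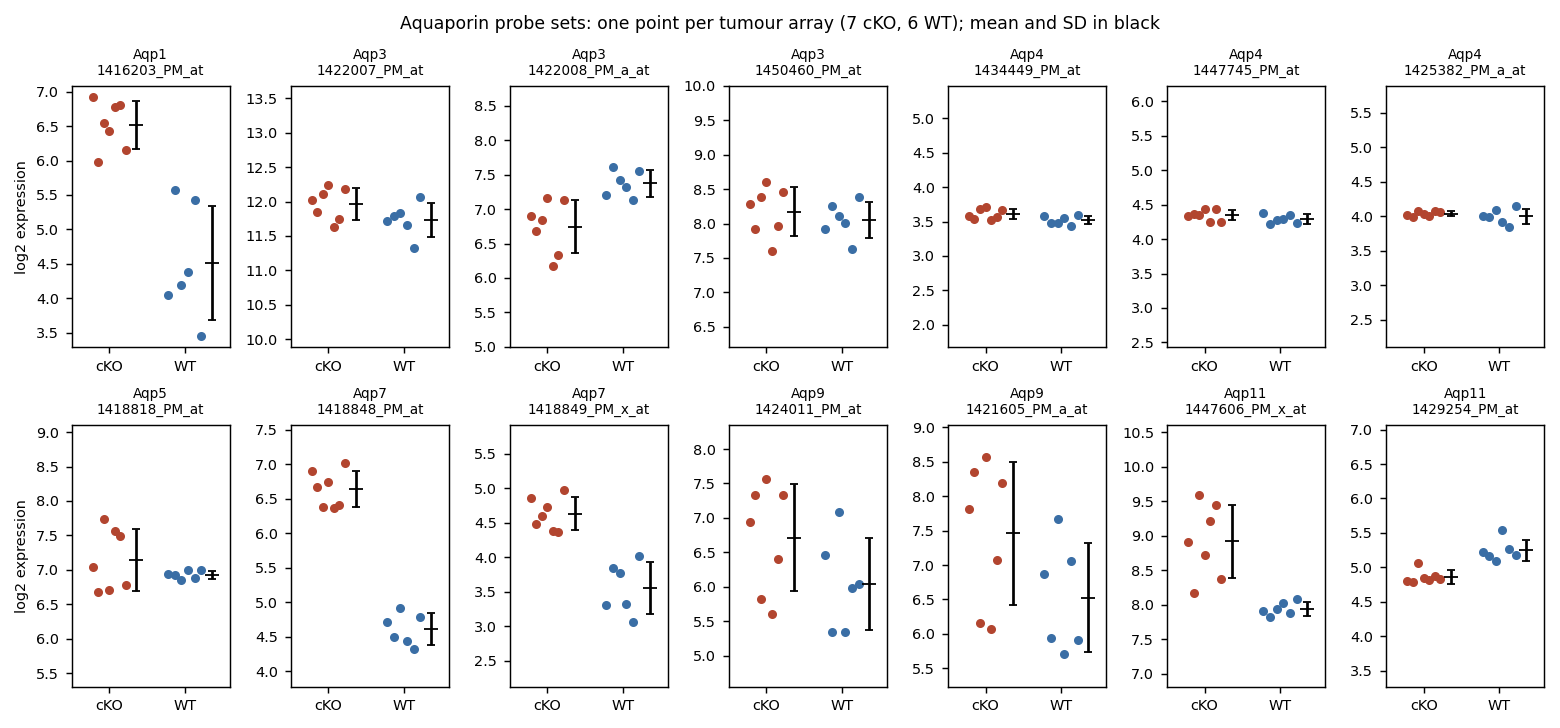
Log2 expression of the 14 aquaporin probe sets, one panel each, with 1 point per array (cKO left, WT right) and the mean with its SD in black. Each panel spans the same number of log2 units. Aqp1, both Aqp7 probe sets and both Aqp11 probe sets separate the groups, and Aqp9 overlaps widely.

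Sequences before the transcription start are shown for Aqp1 and Aqp7, the members that rose on all their probe sets, and for Aqp3, which directly neighbours Aqp7 among protein-coding genes and did not follow it. They are from RefSeq (GRCm38.p6), end at the first transcript start of the gene and are written 5′ to 3′ on the gene's strand, with CpG dinucleotides in capitals.
Aqp1 (chr6:55336049-55336298, plus strand): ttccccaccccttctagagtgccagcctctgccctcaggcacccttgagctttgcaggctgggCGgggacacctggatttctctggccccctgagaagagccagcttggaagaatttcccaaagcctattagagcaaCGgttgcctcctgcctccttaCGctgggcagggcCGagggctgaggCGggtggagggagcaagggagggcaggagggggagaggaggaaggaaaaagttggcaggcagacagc
Aqp7 (chr4:41048238-41048386, minus strand): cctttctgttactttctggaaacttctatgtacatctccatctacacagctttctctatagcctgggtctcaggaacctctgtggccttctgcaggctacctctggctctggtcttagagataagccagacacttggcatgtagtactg
Aqp3 (chr4:41098184-41098433, minus strand): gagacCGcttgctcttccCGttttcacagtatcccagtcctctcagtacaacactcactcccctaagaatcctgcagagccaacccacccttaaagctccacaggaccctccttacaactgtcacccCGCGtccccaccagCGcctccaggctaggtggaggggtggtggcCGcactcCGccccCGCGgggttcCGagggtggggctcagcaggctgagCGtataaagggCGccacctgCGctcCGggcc

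In windows of 250 bases before an annotated start, Aqp7 held 0 CpG at one start and 2 at the other, Aqp1 held 5 and Aqp3 held 14. The median over 32851 such mouse windows was 6. The windows searched for the members, 8 over 6 genes, did not include Aqp4. The most CpG-rich of them was that of Aqp5, with 38, a count that 98.1% of all windows stayed below. The AP-1 element TGANTCA, which TPA acts through, was searched on both strands and was found in 1 of 8 member windows, 24 bases before one of the Aqp9 starts, and in 6.75% of all windows. The TATA box TATAAA was found in 1 of 8, in that of Aqp3 29 bases before the start, and in 12.4% of all. These are matches of letters only.

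Aqp1 encodes the water channel of capillary endothelium. On cKO arrays it read 5.98 at the lowest, 6.55 at the median and 6.92 at the highest, against 3.45, 4.29 and 5.58 on WT arrays (log2). Every cKO array lay above every WT array, and the WT arrays were spread more widely, with replicates 4 and 8 at 5.58 and 5.43 and replicate 9 at 3.45. Aqp1 thus rose by 2.00 ± 0.32 (log2, SE), or 4.00-fold, from group means of 6.51 ± 0.35 in cKO and 4.51 ± 0.83 in WT tumours (SD, n = 7 and 6). On 3 of 6 WT arrays it lay below the background level, and with those arrays set at that level the ratio was 3.49-fold.

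Most endothelial markers moved with Aqp1. Of 9 such genes 7 were higher and none lower without the pair term, against 25.7% and 20.1% of all genes. In both fits 6 of them were higher, against 13.7% of all genes. The median difference was 1.18 against 0.02 over all genes. The mean of these 9 markers per array was 5.59 to 6.06 in cKO and 4.30 to 5.48 in WT tumours. The order of the 6 WT arrays by Aqp1 was the order by this mean, with replicate 9 lowest and replicate 4 highest. These arrays mirror each other in pairs, so the shared order does not rest on 6 independent arrays. Emcn (endomucin, on the list) read 6.56 in cKO and 4.82 in WT tumours, a difference of 1.75, and was among 20360 probe sets the one most like Aqp1 over the 13 deviations from group means, with r = 0.97. Next came Col15a1 (r = 0.95), which rose by 1.26, and Pheta2 (r = 0.94), which differed by -0.06 and was not called. Kdr, on the endothelial list and above the background level, read 5.11 in cKO and 5.08 in WT tumours and was called by neither fit. Tek, also on that list, averaged below the background level. Fibroblast markers moved as well, with 5 of 7 higher in both fits and array means of 6.06 to 6.60 in cKO and 4.57 to 5.54 in WT tumours. Of these 7 genes 3 averaged below the background level over all arrays, with Lum among the 5 that were higher. Red blood cells carry Aqp1 as well. Of their 3 measured markers 2 were higher without the pair term, Slc4a1 by 0.14 and Alas2 by 0.31, and none in both fits. The third, Hba-a1, read 8.24 ± 0.70 in cKO and 8.20 ± 1.02 in WT tumours (SD). In tumour RNA, more cells of a type and more RNA per cell cannot be told apart, and the part of vessel, blood or stromal content in the Aqp1 difference was not tested.

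**Figure D2:**
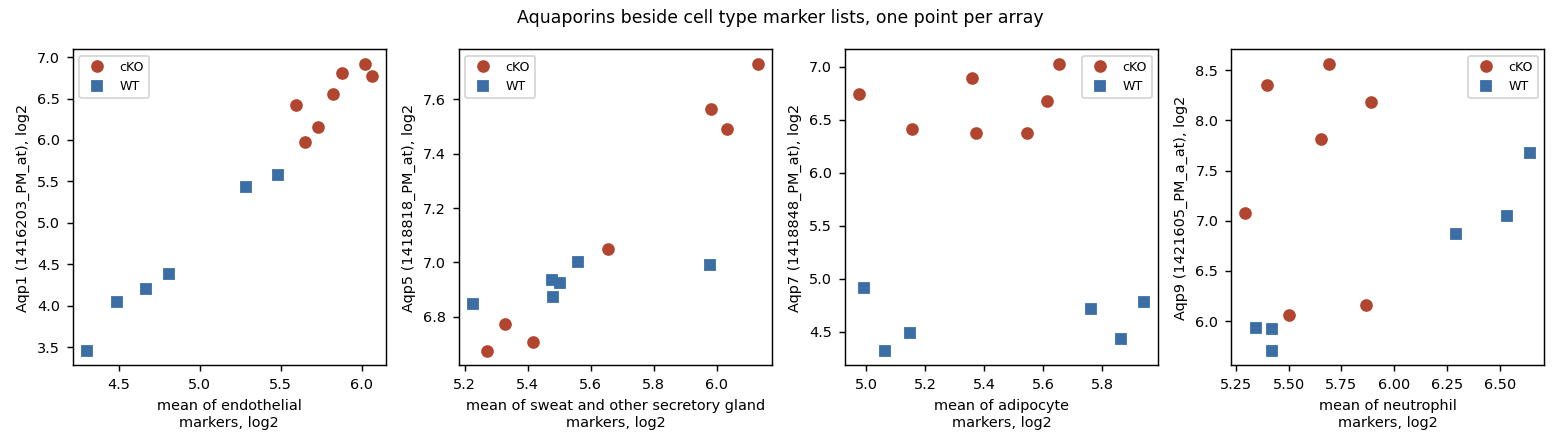
Log2 level of Aqp1, Aqp5, Aqp7 and Aqp9 (vertical axes) beside the mean log2 level of a cell type marker list (horizontal axes), 1 point per array, cKO as circles and WT as squares. Aqp1 runs along with the mean of the endothelial markers in both groups. For Aqp7 the cKO arrays lie above the WT arrays along the adipocyte mean, which varied mainly through Fabp4.

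Aqp7, an aquaglyceroporin known for releasing glycerol from fat cells, differed by about as much as Aqp1 and with less spread. Probe set 1418848_PM_at read 6.37, 6.68 and 7.03 on cKO arrays (lowest, median and highest) and 4.32, 4.60 and 4.92 on WT arrays. The groups were far apart and each was narrow. It rose by 2.04 ± 0.13 (log2, SE), or 4.10-fold, and leaving out any single array gave 1.97 to 2.10. The second probe set, 1418849_PM_x_at, read 4.36, 4.59 and 4.98 in cKO and 3.06, 3.54 and 4.01 in WT tumours, with no overlap. All 6 of its WT arrays lay below the background level, so only a bound can be given, at least 1.26-fold higher in cKO tumours. The letter x in a probe set's name marks probes that may also match other sequences. Of all probe sets, both fits called 0.564% higher and 0.773% lower with a change over 2-fold. These shares are given for scale only, since Aqp7 was chosen on the same contrast.

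Of 4 measured adipocyte markers both fits called 2 higher and 1 lower, against 13.7% and 9.98% of all genes. The median difference of these markers was 0.02. Adipoq (3.73 in cKO and 3.54 in WT tumours) and Lep (3.81 and 3.97) lay below the background level. Retn rose by 0.22, a size found among hybridisation controls, and Fabp4 read 8.48 in cKO and 9.04 in WT tumours and was not called. The mean of the list was 4.98 to 5.66 in cKO and 4.99 to 5.94 in WT tumours. It varied mainly through Fabp4, whose SD was 1.01 in cKO and 1.70 in WT tumours, against 0.03 to 0.09 for the other genes. The part of fat cells in the Aqp7 values was not tested. The gene most like Aqp7 over the 13 deviations was Il20, which encodes a cytokine of the interleukin-10 family (r = 0.93, difference 1.24). Next came Kcnc4 and Gpx1, with r = 0.90 each.

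Genes beside Aqp7 did not share its rise. Nfx1 on one side read 9.58 in cKO and 9.76 in WT tumours and was not called, and Aqp3 on the other side is described next. Nol6, beyond Aqp3, differed by 0.04 and was not called either. Aqp5 lies between Aqp2 and Aqp6, with values given with the other aquaporins.

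Aqp3, the keratinocyte aquaglyceroporin, was read by 3 probe sets that differed in direction. Probe set 1422007_PM_at read 11.63, 12.02 and 12.23 on cKO arrays and 11.33, 11.75 and 12.07 on WT arrays (lowest, median, highest). Its groups overlapped, and the difference of 0.24 had an interval of -0.03 to 0.50. Probe set 1450460_PM_at read 7.60, 8.29 and 8.60 in cKO and 7.63, 8.06 and 8.39 in WT tumours, a difference of 0.12 (-0.24 to 0.48). Neither was called by either fit, and the intervals leave room for changes in both directions.

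The third, 1422008_PM_a_at, read 6.17, 6.85 and 7.16 in cKO and 7.12, 7.37 and 7.61 in WT tumours. Of the 7 cKO arrays 5 lay below all WT arrays, with replicates 6 and 8 lowest at 6.17 and 6.33. Its difference of -0.63 ± 0.16 (log2, SE) was called without the pair term and not with it. The 3 probe sets rose and dipped together from array to array, with r between 0.87 and 0.95 over the 13 deviations, so the disagreement concerns the group difference. The letter a in the name marks probes that can match several transcripts of one gene, and the files do not say where in Aqp3 the probes lie. Genes most like the first probe set were Slc30a1, Dcdc2b and Kif5c (r = 0.97, 0.97 and 0.96).

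**Figure D3:**
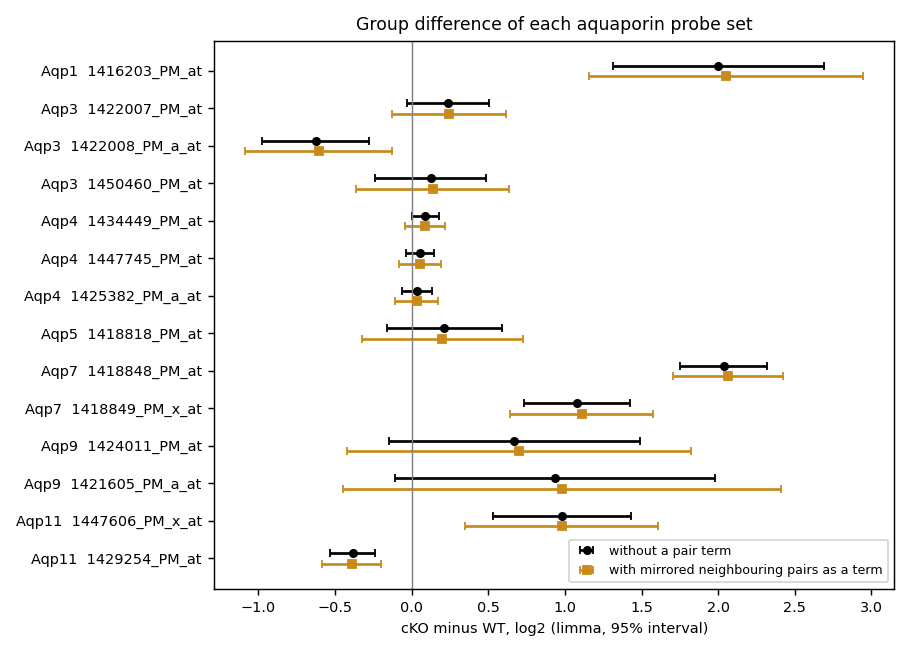
Difference of each aquaporin probe set, cKO minus WT on the log2 scale, with its 95% interval from limma. Circles are the fit without and squares the fit with mirrored neighbouring pairs as a term. Aqp1, Aqp7 and one Aqp11 probe set lie right of 0 in both fits, and the other Aqp11 probe set and 1422008_PM_a_at of Aqp3 lie left of it.

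Aqp11, an unusual family member that resides in the endoplasmic reticulum, gave opposite results on its 2 probe sets. On 1447606_PM_x_at the cKO arrays read 8.17, 8.91 and 9.60 and the WT arrays 7.82, 7.92 and 8.08 (lowest, median, highest). The WT arrays were tightly grouped and the cKO arrays spread upward from just above them, with replicate 2 at 8.17 and replicate 3 at 9.60. This probe set rose by 0.98 ± 0.21 (SE), or 1.97-fold.

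On 1429254_PM_at the cKO arrays read 4.79, 4.83 and 5.07 and the WT arrays 5.10, 5.20 and 5.55. All cKO arrays lay below all WT arrays, and the probe set fell by 0.39 on the log2 scale (SE 0.07). Both probe sets lay above the background level on all arrays. They had r = 0.41 over the 13 deviations, against 0.72 for those of Aqp7 and 0.95 for those of Aqp9. The first carries the letter x, so its probes may also match other sequences, and no direction for the gene as a whole can be given.

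Aqp5, a water channel of sweat, salivary and other glands, was even in WT tumours and uneven in cKO tumours. It read 6.67, 7.05 and 7.73 on cKO arrays and 6.85, 6.93 and 7.00 on WT arrays (lowest, median, highest). In cKO tumours 4 arrays lay above and 3 below the WT range. The difference of 0.21 (-0.16 to 0.59) was not called by either fit.

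The cKO arrays with the highest Aqp5, replicates 3, 6 and 8, also had the highest Aqp11 on 1447606_PM_x_at and the lowest Aqp9 on both its probe sets. The same 3 arrays had the highest mean of the sweat and other secretory gland markers, 5.98 to 6.13 against 5.27 to 5.65 on the other 4, and the lowest mean of the suprabasal keratinocyte markers, 6.34 to 6.54 against 7.11 to 7.59. Of these 8 gland genes, Scgb1a1 and Cftr averaged below the background level over all arrays, and Slc12a2 is also on the list of volume regulation below. The list mean varied mainly through Krt8 and Krt18, keratins of simple epithelia, whose SDs over the cKO arrays were 1.49 and 1.39, against 0.05 to 0.33 for the other 6 genes. Replicates 2, 5 and 9 are the mirrored partners of these 3, so the contrast within the group rests on 3 pairs and replicate 1. Genes most like Aqp5 were Parvb, Jam2 and Lepr (r = 0.99, 0.98 and 0.98), and those most like Aqp11 on the x probe set were Fut8, Fgfrl1 and Pgghg (r = 0.97, 0.96 and 0.95).

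**Figure D4:**
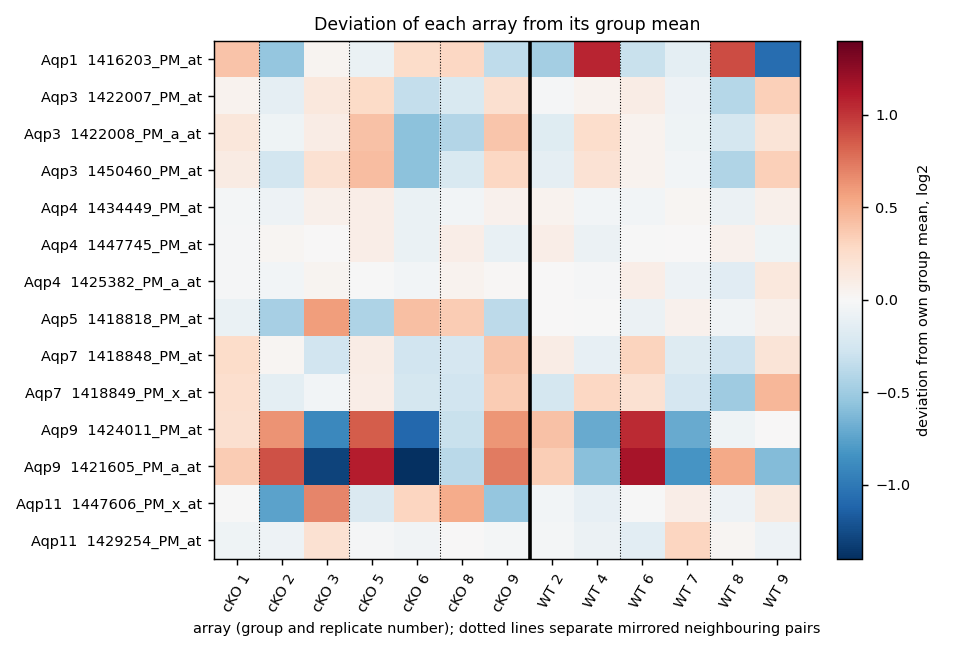
Deviation of each array from its own group mean (colour, log2) for the 14 aquaporin probe sets, cKO arrays left of the thick line and WT arrays right of it. Dotted lines separate mirrored neighbouring pairs. Within cKO, Aqp5 and the x probe set of Aqp11 are high where Aqp9 is low.

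Aqp9, an aquaglyceroporin that also conducts other small solutes and is known from liver and leukocytes, varied widely from array to array in both groups. Probe set 1421605_PM_a_at read 6.06, 7.82 and 8.56 on cKO arrays and 5.70, 6.40 and 7.67 on WT arrays (lowest, median, highest). In cKO tumours 4 arrays lay above all WT arrays. The cKO replicates 3 and 6, at 6.16 and 6.06, lay between WT replicates 4 (5.93) and 2 (6.86). Probe set 1424011_PM_at read 5.61, 6.93 and 7.56 in cKO and 5.34, 6.02 and 7.09 in WT tumours.

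The differences of Aqp9 were 0.94 (-0.11 to 1.98) and 0.67 (-0.15 to 1.49), and neither fit called them. When mirrored partners were averaged, the 3 cKO pairs for 1421605_PM_a_at lay between 7.26 and 7.63, with the unpaired replicate 1 at 7.82, and the 3 WT pairs between 6.40 and 6.69. Averages of mirrored arrays stay close to the group mean by construction and carry no measure of the spread between tumours. In WT tumours the 3 arrays highest on this probe set (replicates 2, 6 and 8) had neutrophil marker means of 6.29 to 6.64, against 5.34 to 5.42 on the other 3. Replicates 4, 7 and 9 are the mirrored partners of these arrays, so this contrast rests on 3 pairs. In cKO tumours the neutrophil marker means were 5.40 to 5.89 on the 4 arrays highest in Aqp9 and 5.30 to 5.87 on the other 3, so these ranges overlapped. Of the 6 measured neutrophil genes, Csf3r averaged below the background level. The list mean varied in WT tumours mainly through S100a8 and S100a9 (SD 1.99 and 1.55, against 0.08 to 0.38 for the other 4 genes), which keratinocytes can also express. The part of these cells in the Aqp9 values was not tested. The genes most like Aqp9 were Slc2a4, Mapkbp1 and Mocs1 (r = 0.98, 0.97 and 0.97).

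Aqp4, the water channel of astrocytes and of skeletal muscle, was near background in both groups. Probe sets 1434449_PM_at and 1425382_PM_a_at lay below the background level on all 13 arrays, with ranges of 3.52 to 3.71 and 3.99 to 4.08 in cKO tumours against 3.44 to 3.59 and 3.84 to 4.15 in WT tumours. No fold is given for them. Probe set 1447745_PM_at read 4.25 to 4.44 in cKO and 4.21 to 4.38 in WT tumours, a difference of 0.06 (-0.04 to 0.15), and was below the level on 2 of 7 cKO and 3 of 6 WT arrays. The 8 skeletal muscle markers had array means of 5.03 to 5.14 in cKO and 4.99 to 5.14 in WT tumours. Genes most like the last probe set were Tmem232, Col9a3 and Pgm5 (r = 0.95, 0.93 and 0.93), a likeness among values with little spread.

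The 5 aquaporin genes outside the chosen set, Mip, Aqp2, Aqp6, Aqp8 and Aqp12, had differences between -0.20 and 0.19 over 9 probe sets. Both fits called 3 of these probe sets higher and 1 lower, against 13.4% and 12.6% of all probe sets. Aqp2, the vasopressin-regulated channel of the kidney collecting duct, read 5.47 ± 0.03 in cKO and 5.28 ± 0.05 in WT tumours (SD), and Aqp8 read 4.87 ± 0.03 and 5.07 ± 0.03. Their differences of 0.19 and -0.20 lie inside the range of the array controls. Of 4 Aqp6 probe sets, 1420035_PM_at was called higher by both fits and lay below the background level on all arrays. These differences are smaller than those of Aqp1 and Aqp7.

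Genes that work alongside aquaporins were read by the probe set of highest mean, and of all genes both fits called 23.7%, 13.7% higher and 9.98% lower. Without the pair term 45.8% of genes were called, 25.7% higher and 20.1% lower. The lists were written with earlier results of these data known. Of 17 genes of osmotic and volume regulation, none was higher and 5 were lower without the pair term, and 1 was lower in both fits. The median was -0.26 against 0.02 over all genes, a size found among nonspecific controls. Lrrc8c, a subunit of the volume-regulated anion channel, read 7.01 ± 0.22 in cKO and 7.48 ± 0.14 in WT tumours and fell by 0.47. Slc12a2, the sodium-potassium-chloride cotransporter that swells shrunken cells, read 8.45 ± 0.33 and 9.10 ± 0.27 (limma adjusted p = 0.00531 without and 0.0575 with the pair term). The list mean was 7.56 to 7.68 on cKO and 7.77 to 7.93 on WT arrays.

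Of 12 genes of aquaporin anchoring and turnover, both fits called 1 higher and 3 lower, and without the pair term 4 were higher and 4 lower. Nedd4l, a ubiquitin ligase that marks membrane channels for removal, read 8.24 ± 0.38 in cKO and 9.22 ± 0.36 in WT tumours and fell by 0.98. Sntb2, a syntrophin of the dystrophin complex, fell by 0.87, and Ezr, which ties membrane proteins to actin, fell by 0.58. Pip, whose protein binds Aqp5, was the one called higher and lay below the background level. Of 13 genes of glycerol and triglyceride handling, both fits called 1 higher and 1 lower, with a median of -0.01, and without the pair term 1 was higher and 4 lower. Gpam, the enzyme of the first step from glycerol phosphate to triglyceride, read 7.10 ± 0.13 in cKO and 6.50 ± 0.17 in WT tumours and rose by 0.60. Lipe, hormone-sensitive lipase, fell by 0.28, a size found among nonspecific controls. Of 17 genes of hydrogen peroxide handling, a molecule that several aquaporins conduct, both fits called 3 higher (Nox4, Cybb and Sod3, by 0.15 to 0.23) and none lower, with a median of -0.08. Without the pair term 4 were higher and 4 lower. Nox4 and Cybb lay below the background level, and all 3 of these differences lie inside the range of the hybridisation controls.

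**Figure D5:**
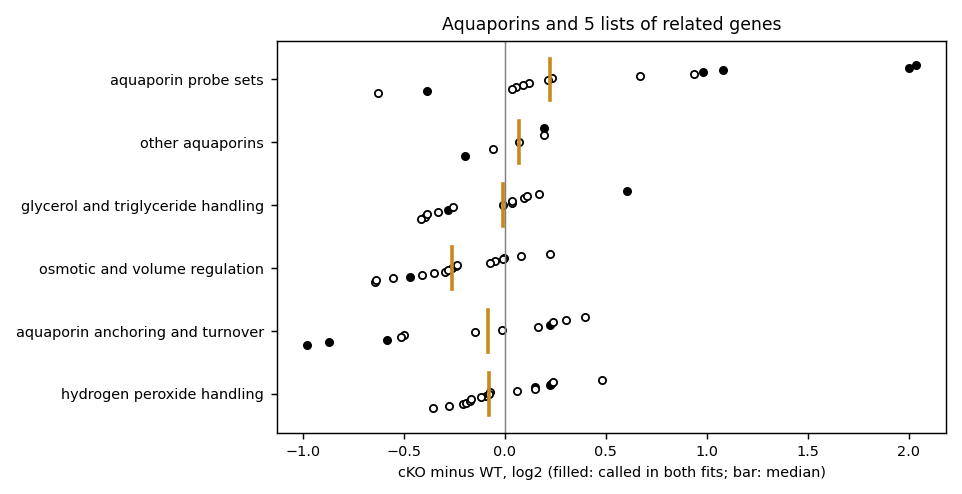
Differences, cKO minus WT on the log2 scale, for the aquaporin probe sets and for the genes of 5 lists, 1 point per probe set or gene. Filled points were called by both fits, and the bar is the median. The Aqp1 point and the Aqp7 point of 1418848_PM_at lie near 2, and the list genes lie within 0.98 of 0. The Aqp7 point at 1.08 is the probe set with WT arrays below the background level.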

How the data were processed

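Per the submitters' processing notes, the authors deposited log2 values made with RMA (background correction, quantile normalization and summary), with no version named. RNA (25 ng) was amplified with 17 cycles and 8 µg of labelled cDNA hybridised, per the labels' protocols. Of 45141 probe sets, 104 were array controls, 28898 had 1 symbol in the platform annotation, 551 several and 15588 none. By gene number, 28689 matched GRCm38.p6, with 0 symbols changed. Differences (cKO minus WT) were fitted in R 4.3.3 with limma 3.58.1 (lmFit, eBayes), two-sided, Benjamini-Hochberg over 45037 probe sets, or over 17097 genes for lists. Precision is limited by how few arrays there are. The pair term was planned for arrays in accession order, and those cKO pairs did not mirror (r of 0.27, -0.46 and 0.39), so the pairs that do mirror were used, a choice made after seeing the data. Members, lists and markers were chosen with earlier results of these data known. Named genes: all members and other aquaporins, up to 3 per list by smallest p, and the 3 genes most like each member by r over 13 deviations from group means, which mirrored arrays do not supply independently. Nedd4l, Tek, Kdr, Fabp4, Krt1, Krt10, Krt8, Krt18, S100a9, Cftr and the genes beside Aqp7 fall outside this rule and were named after their values were seen. Fits were tested on simulated data with independent arrays. The simulation held no mirrored pairs, so it does not show how the fits behave on arrays that mirror each other. Background came from 23 nonspecific controls. Among marker lists not counted in the results, both fits called 1 gene higher and 0 lower for basal keratinocytes, suprabasal keratinocytes, sebaceous gland and neutrophils. They called 2 higher and 0 lower for macrophages, 2 higher and 1 lower for secretory gland and for skeletal muscle, and 0 for red blood cells. Of all genes both fits called 13.7% higher and 9.98% lower.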

Additional observations from a re-analysis of the deposited data

Results flagged for a closer look

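Among 50 groups of arrays (both groups of each aquaporin and Ehmt2 probe set), 2 held an array far from the rest, a share that chance alone gives to about 1 group in 20. For Aqp11 on 1429254_PM_at, cKO replicate 3 read 5.07, against 4.79 to 4.87 on the other cKO arrays, and so lay nearest to the WT arrays. For Aqp2 on 1418903_PM_at, cKO replicate 2 read 5.40, against 5.47 to 5.51.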

How the results depend on the processing

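Aqp1, both Aqp7 probe sets and 1429254_PM_at of Aqp11 kept direction and call in every alternative fitted by probe set. In limma fits, the other Aqp11 probe set lost its call with the replicate block (0.85, adjusted p = 0.0881), and the mean over Aqp11 probe sets was 0.30 (adjusted p = 0.0635). With mirrored pairs 1422008_PM_a_at of Aqp3 lost its call (adjusted p = 0.0647), leaving 1 aquaporin probe set lower, and likewise after quantile normalization with mirrored pairs (1). With array weights, whose estimation stopped early, 1422007_PM_at of Aqp3 (0.26, adjusted p = 0.0333) and 1421605_PM_a_at of Aqp9 (1.17, adjusted p = 0.0245) were called. Without cKO replicate 6, 1434449_PM_at of Aqp4 was called (adjusted p = 0.0464), though it lay below the background level on all arrays. Direction turned for 1450460_PM_at of Aqp3 with the replicate block (-0.0266) and for Aqp3 as a mean over probe sets (-0.0896). The cause of these changes was not tested.

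Over all probe sets, 11009 were higher and 10556 lower. Mirrored pairs gave 6028 and 5683, after quantile normalization 5830 and 5008, and quantile normalization with pairs in accession order gave 6806 lower. The replicate block gave 4241 and 4714, a filter at the control upper quartile 6867 higher of 32222. By gene the counts were 4386 and 3444, and with means over probe sets 4315 and 3569, over fewer features. Of the 64 genes of the 5 lists, 11 were higher and 18 lower. These counts became 6 and 6 with mirrored pairs, 6 and 7 after quantile normalization with them, 6 and 10 after it with pairs in accession order, 8 lower with those pairs alone, 3 and 6 with the replicate block, and 7 higher with a filter at the 25th percentile. Leaving out 1 array gave 9908 to 10712 and 9454 to 10394 probe sets, 4 to 5 and 2 to 2 aquaporin probe sets, and 10 to 12 and 14 to 19 list genes. The shared replicate numbers 2, 6, 8 and 9 did not pair the arrays (r of deviations between -0.28 and 0.05).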
